A study of Rattus norvegicus with 210 samples.

Results

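Polyadenylated RNA of the pre-optic area (POA) was compared between adult female rats whose dams had received ketoconazole (KTZ) at 12 mg/kg bw/day (K12) and rats whose dams had received the corn oil vehicle (control). The comparison holds the 10 POA libraries labelled PND90 in these 2 groups, 5 K12 and 5 control, of 210 libraries in the series. They were chosen by tissue, age and dose alone. The series covers the POA and the mediobasal hypothalamus (MBH) of female Sprague-Dawley rats, for most of them from the same animal, at postnatal day (PND) 22, 42 and 90, after maternal exposure to vehicle, to diethylstilbestrol (DES) at 3, 6 or 12 µg/kg bw/day or to KTZ at 3, 6 or 12 mg/kg bw/day. Dams were gavaged once daily from gestation day 7 to birth and again from the day after birth to PND22, so that the PND90 rats of both groups had been without exposure since weaning. Each library came from 1 rat, and the labels do not say which rats shared a litter. The POA and the MBH were cut by hand from the ventral brain, so a library can hold tissue of the neighbouring areas. Reads assigned to genes ranged from 16856857 to 20687509 in the control libraries and from 14445513 to 23715069 in the K12 libraries.

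KTZ is an azole antifungal that blocks cytochrome P450 enzymes, among them lanosterol demethylase in sterol synthesis and several enzymes of steroid hormone synthesis. The POA lies in front of and above the optic chiasm. It holds the cell bodies of most gonadotropin-releasing hormone (GnRH) neurons of the rat, and it borders on the cholinergic and GABAergic neurons of the basal forebrain and septum. The MBH lies behind it and holds the arcuate and ventromedial nuclei and, towards its caudal edge, the premammillary and mammillary nuclei with the histaminergic neurons. The lateral hypothalamus beside it holds the melanin-concentrating hormone and orexin neurons. Transcription factors and neuropeptides that are restricted to one of these areas show which tissue a library came from. In bulk RNA, fewer cells of a type and less RNA per cell cannot be told apart.

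The labelled tissue was therefore checked first, with 4 transcripts of caudal and lateral hypothalamus, as counts scaled to the library's total (CPM). Hdc, the histidine decarboxylase of histamine neurons (ENSRNOG00000010262), was at 3.96, 2.81, 1.66, 1.45 and 4.05 CPM in the 5 control libraries and at 91.0, 116, 109, 104 and 125 CPM in the 5 K12 libraries. Pmch, the melanin-concentrating hormone precursor, was at 1.64, 140.6, 2.55, 3.50 and 3.90 CPM in the control libraries and at 1361, 987, 1175, 1207 and 1018 CPM in the K12 libraries. Both groups of Hdc and Pmch values stood apart without overlap, although control replicate 2 held far more Pmch than the other 4. Lmx1a, a transcription factor of the posterior hypothalamus, was at 0.29, 0.64, 0.24, 0.70 and 0.58 CPM in control and at 15.8, 11.5, 15.0, 12.8 and 15.2 CPM in K12. Foxb1, a transcription factor of the mammillary body, was at 2.37, 3.21, 1.6, 2.05 and 4.42 CPM in control and at 13.2, 13.3, 13.6, 8.52 and 14.1 CPM in K12. All 5 K12 libraries carried all 4 transcripts at or near MBH level. In the 5 MBH control libraries at PND90, Hdc lay at 81.6 to 140 CPM, Pmch at 888 to 1166 CPM, Lmx1a at 7.45 to 18.6 CPM and Foxb1 at 10.3 to 13.3 CPM. The labels of these 5 libraries thus say POA and their regional transcripts are those of the MBH. They are called the libraries labelled K12 from here on, and every direction given for K12 against control is a direction between these libraries.

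The transcripts that mark the POA were low in the same 5 libraries. Gnrh1 (ENSRNOG00000013441), the GnRH precursor, was at 24.6, 6.12, 10.1, 13.7 and 25.2 CPM in control and at 0.72, 0.46, 0.77, 0.31 and 0.83 CPM in the libraries labelled K12. The groups did not overlap, and the lowest control library was replicate 2. The other POA libraries at PND90 under KTZ showed the same split inside one dose group. In the K3 group (3 mg/kg bw/day), all 5 libraries had POA levels, with Hdc at 1.31 to 4.83 CPM and Gnrh1 at 14.8 to 26.4 CPM. In the K6 group (6 mg/kg bw/day), replicate 1 had 4.11 CPM of Hdc and 17.6 CPM of Gnrh1, whereas replicates 2 to 5 had 117 to 141 CPM of Hdc and 0.61 to 1.44 CPM of Gnrh1.

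**Figure D1:**
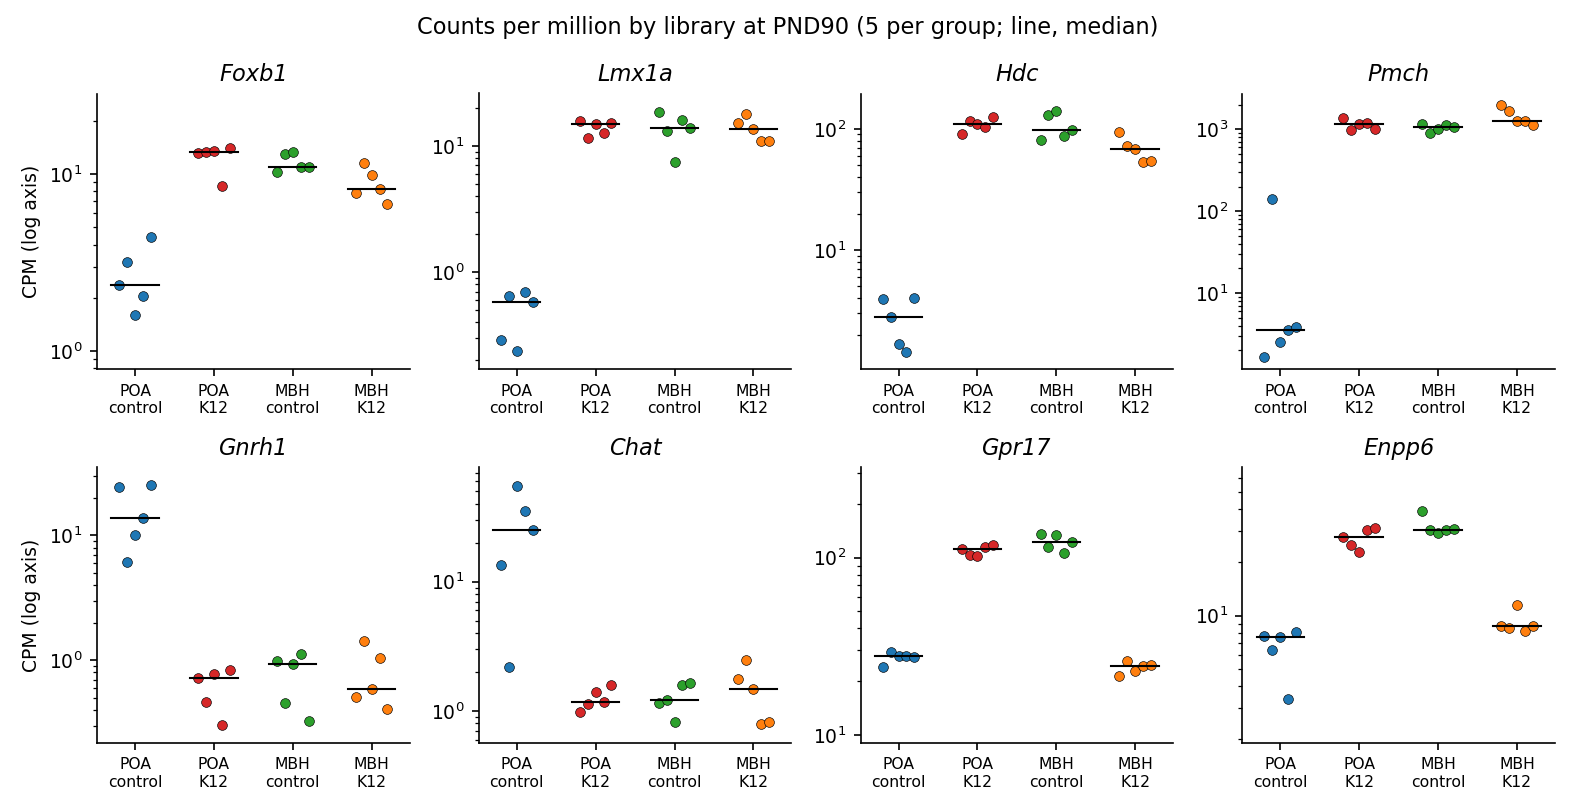
CPM on a log axis of 8 transcripts in each library of POA control, POA K12, MBH control and MBH K12 at PND90; points are single libraries and lines are group medians. Foxb1, Lmx1a, Hdc and Pmch in the libraries labelled POA K12 lie within or near the range of MBH control and far above POA control, Gnrh1 and Chat lie below POA control, and Gpr17 and Enpp6 lie near MBH control and above MBH K12.

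The promoters of 3 of the transcripts with the largest rises are shown because their levels separate the groups most plainly. They were taken from RefSeq (build GRCr8, a later one than the Rnor_6.0 build of the counts) and run from 250 bases before to 50 bases after the gene start. The motif searched for was TATAAA, on both strands, and capitals mark it. A match is a description of the letters only, and 14.2% of 33469 rat promoters of this length held it. Of the 31 genes named by rule, 19 had an entry and 4 of these held the motif. The Hdc window held no match, Npvf held it 42 bases before the gene start and Hcrt held it 29 bases before.
Hdc promoter, chr3:134318655-134318954, minus strand: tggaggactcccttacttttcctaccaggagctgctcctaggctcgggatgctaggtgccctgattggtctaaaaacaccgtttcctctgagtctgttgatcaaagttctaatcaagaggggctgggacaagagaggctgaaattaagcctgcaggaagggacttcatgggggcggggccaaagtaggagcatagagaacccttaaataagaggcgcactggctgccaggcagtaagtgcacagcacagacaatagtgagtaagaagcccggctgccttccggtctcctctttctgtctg
Npvf promoter, chr4:81046996-81047295, minus strand: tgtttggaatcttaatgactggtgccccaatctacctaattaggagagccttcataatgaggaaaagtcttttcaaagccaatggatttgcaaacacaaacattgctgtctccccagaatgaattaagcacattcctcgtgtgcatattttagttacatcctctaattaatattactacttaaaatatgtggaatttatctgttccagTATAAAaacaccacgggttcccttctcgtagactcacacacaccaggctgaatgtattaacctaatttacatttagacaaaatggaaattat
Hcrt promoter, chr10:86191475-86191774, minus strand: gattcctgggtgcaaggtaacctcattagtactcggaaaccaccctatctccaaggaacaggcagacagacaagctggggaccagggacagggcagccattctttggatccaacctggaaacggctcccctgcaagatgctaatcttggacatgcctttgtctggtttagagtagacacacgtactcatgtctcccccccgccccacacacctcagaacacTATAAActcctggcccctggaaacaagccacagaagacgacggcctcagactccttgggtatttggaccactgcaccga

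A profile over many genes gave the same picture. The region profile was the mean log2 (CPM + 0.5) of 100 genes higher in MBH minus that of 100 genes higher in POA, chosen in 30 DES libraries at PND90 that take no part in the comparison, 15 of each tissue. It lay at -1.6 to -0.99 in POA control and at 1.86 to 2.14 in the libraries labelled K12, beside 1.72 to 2.04 in MBH control and 0.89 to 1.30 in MBH K12. The labelled age was checked likewise with a PND22 profile, made from genes that differ between the DES libraries of the POA at PND22 and at PND90. This profile lay at -1.85 to -1.38 in POA control at PND90 and at 0.21 to 0.56 in POA control at PND22. The libraries labelled K12 lay at -0.13 to 0.14, nearer to the PND22 libraries than to any POA control at PND90. MBH control at PND90 lay at -0.07 to 0.17 and MBH control at PND22 at -0.02 to 0.15, whereas MBH K12 at PND90 lay at -1.84 to -1.62. The libraries labelled K12 therefore differed from POA control both by region and along the PND22 profile. Region, age profile and KTZ exposure cannot be told apart within this comparison.

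**Figure D2:**
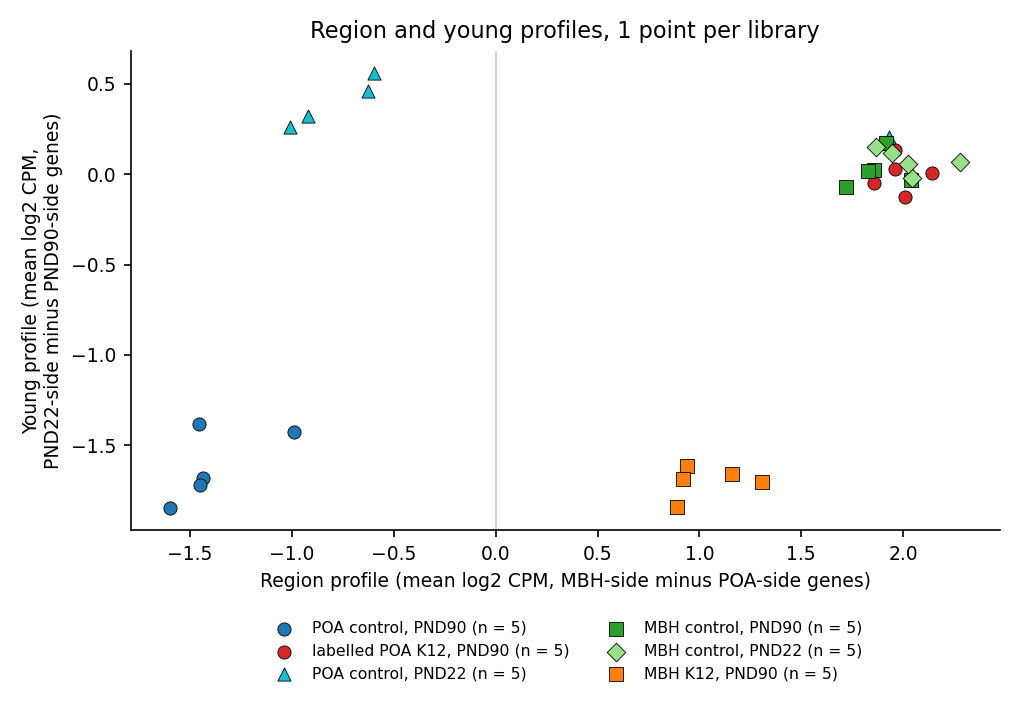
Region profile (x axis, log2 units, higher towards MBH) against PND22 profile (y axis, log2 units, higher towards PND22) for each library of 6 groups; each point is 1 library. The 5 libraries labelled POA K12 lie at 1.86 to 2.14 on the x axis and -0.13 to 0.14 on the y axis, among MBH control at PND90 and apart from POA control at PND90.

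Facts of the whole series touch this comparison at several points. Replicates 2 to 5 of K6 in the POA at PND90 and replicate 4 of POA control at PND22 also lay on the MBH side of the region profile (1.81 to 2.07 and 1.93). So did replicate 4 of D6 in the POA at PND42 (1.06). Conversely, all 5 MBH libraries of K6 at PND42 lay on the POA side (-1.59 to -0.96). Some MBH libraries of K3 and K12 at PND42 and of D3 and D12 at PND22 did so too. The MBH libraries labelled control, D3 and D6 at PND90 had PND22 profiles like those of MBH control at PND22, and within D12 replicates 3 to 5 differed from the other 2. None of the 5 libraries labelled K12 held the same counts as another library of the series. In the closest pair, K12 replicate 3 in the POA and D6 replicate 4 in the MBH, the mean squared count difference was 4.23 times the sampling variance. Pairs without a library labelled K12 were not compared.

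The libraries labelled K12 were then set against other groups, one at a time, with edgeR's quasi-likelihood test and Benjamini-Hochberg adjustment over all genes tested (adjusted p under 0.05). Against POA control, 4375 of 14682 genes were called, and against the K3 libraries of the POA 4624. Against the MBH K12 libraries of the same rats, 5402 of 14634 genes were called (36.9%), 19.0% of all tested higher and 17.9% lower. Against MBH control at PND90, 0 of 14720 genes were called, with 1429 at an unadjusted p under 0.05. DESeq2 called 86 genes there, 7 higher and 79 lower, and leaving out MBH control replicate 4 gave 95 by edgeR. Against MBH control at PND22 the count was also 0, with 556 genes at an unadjusted p under 0.05, and against MBH control at PND42 it was 1945. A count of 0 does not show that the groups are alike. The typical distance from a library to a group mean was taken as the root mean square difference in log2 CPM over the genes tested. By this measure the libraries labelled K12 lay at 0.234 to 0.249 from MBH control at PND90, at 0.223 to 0.252 from their own group, at 0.399 to 0.471 from MBH K12 and at 0.462 to 0.520 from POA control.

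**Figure D3:**
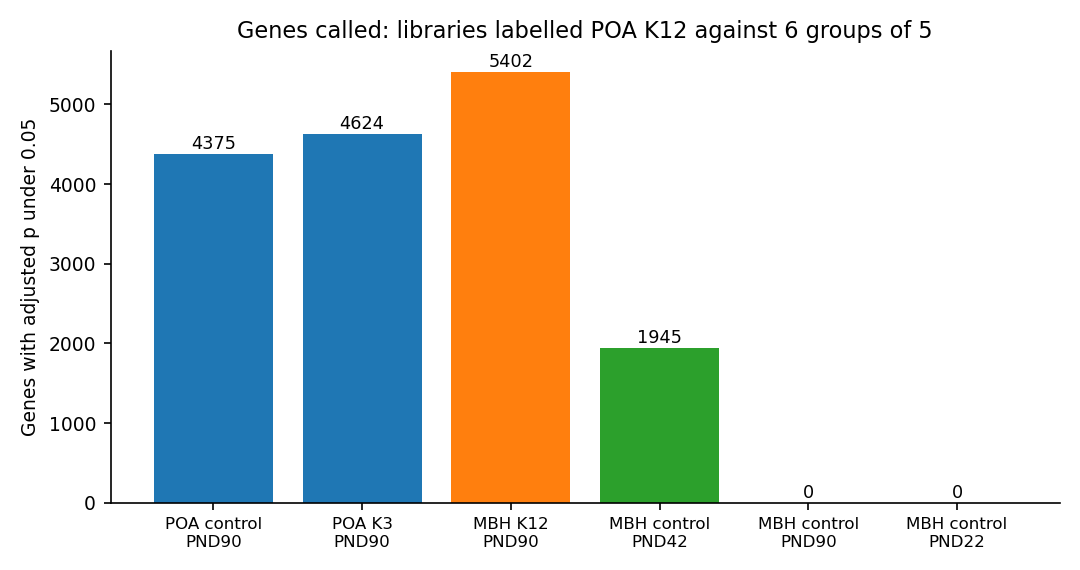
Number of genes called (adjusted p under 0.05, y axis) between the 5 libraries labelled POA K12 at PND90 and each of 6 reference groups (x axis). Bars stand at 4375 for POA control, 4624 for POA K3, 5402 for MBH K12, 1945 for MBH control at PND42 and 0 for MBH control at PND90 and at PND22.

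The comparison with POA control called 29.8% of all genes tested, 2386 higher (16.3%) and 1989 lower (13.5%) in the libraries labelled K12. The median log2 difference over all genes was 0.01. At least a 2-fold difference was reached by 749 of the genes called (5.10% of all tested), 484 higher and 265 lower. The CPM of the 2 groups did not overlap for 3037 genes (20.7%).

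To see which changes follow region, each gene was read against its MBH minus POA difference in the 30 DES libraries, none of which is in the comparison. That contrast called 3548 of 15112 genes (23.5%), 10.8% higher in MBH and 12.7% higher in POA. In it, POA D6 replicate 2 lay at -0.28 on the region profile, beside a median of -1.44 in its group. Without that library 5922 genes were called, and the counts below from this contrast include it. Across 14670 genes the K12 minus control difference and the regional difference had a Pearson's r of 0.83 (Spearman's rho 0.73). This r is a description across genes, which are not independent replicates. Of the genes called in both, all 2283 had the same direction. Among genes called at least 2-fold higher in MBH, 272 of 311 (87.5%) rose in the libraries labelled K12 and 0 fell. Among those called at least 2-fold higher in POA, 138 of 173 (79.8%) fell and 0 rose. These 410 genes, 9.37% of all calls, follow region by the rule set for this comparison, and 0 genes went against it. With the regional contrast of the K3 libraries the count was 185, with 3 genes against, and with that of the PND42 controls 135, with 2 against. A further 1927 calls, 44.0% of the total, were genes whose regional difference was under 0.25 on the log2 scale, and 18.9% of the 10205 such genes were called.

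That regional contrast carries the age profile as well, since most MBH DES libraries at PND90 lay towards PND22. Both were therefore separated with libraries whose profiles stand at the labelled age. The K3 libraries at PND90 gave an MBH minus POA difference with 788 of 14500 genes called (5.43%), and the control libraries at PND42 gave 437 of 14618 (2.99%). The POA DES libraries gave a PND22 minus PND90 difference with 6257 of 14916 genes called (41.9%). Over the 14329 genes tested in all 3, the K12 minus control difference had an r of 0.43 with the K3 regional difference and of 0.51 with the PND22 difference, and both together accounted for 55.6% of its variance across genes, against 18.1% and 25.6% alone. The 2 differences shared no library with the comparison. Of the 4238 calls among these genes, 2283 (53.9%) went with the PND22 difference alone, 265 (6.25%) with the K3 regional difference alone and 63 with both. Another 1542 calls (36.4%) went with neither, and 7802 genes called on neither axis were called in 19.3% of cases. Of all 14329 genes, 4975 went with the PND22 difference alone, 387 with the K3 regional difference alone and 64 with both. The counts cannot rank the 2 axes, since the K3 contrast had 5 libraries per tissue and the PND22 contrast 15 per age.

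**Figure D4:**
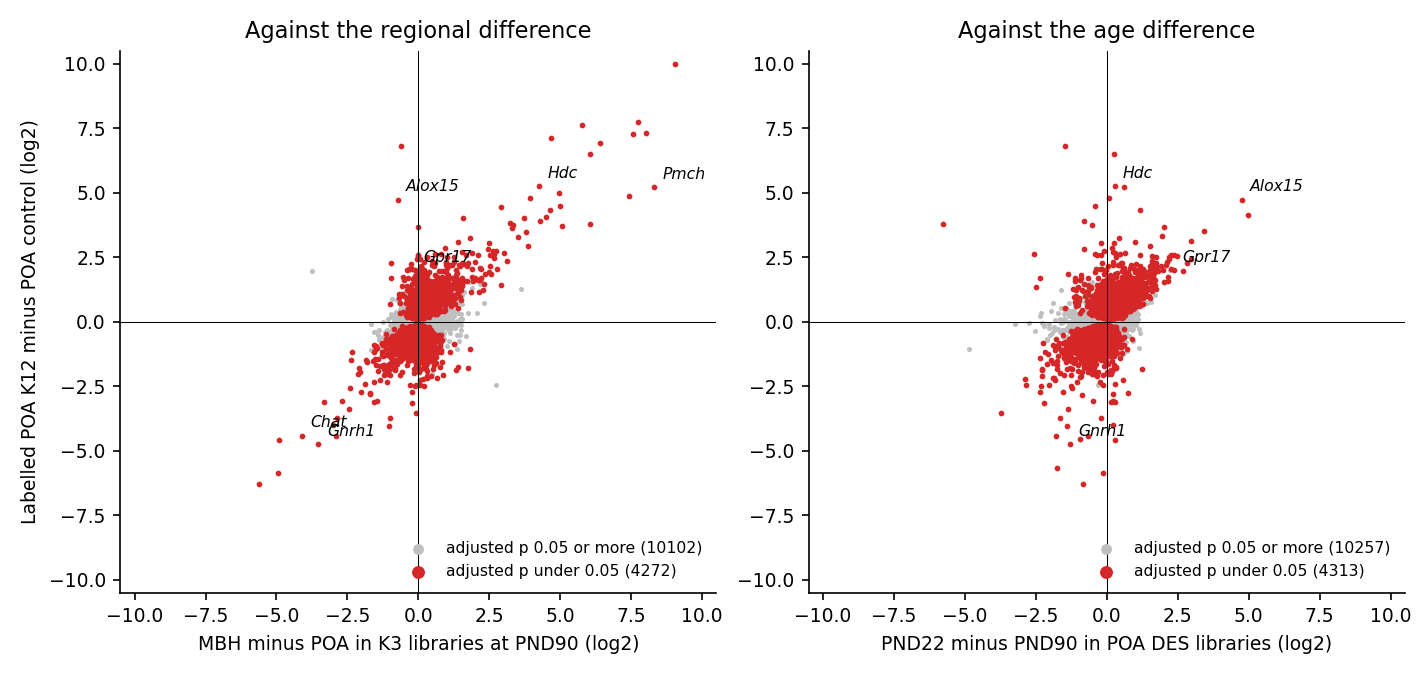
K12 minus control log2 difference (y axis) of each gene against the MBH minus POA log2 difference in the K3 libraries at PND90 (left) and against the PND22 minus PND90 log2 difference in the POA DES libraries (right); genes called in K12 against control are coloured. The genes at the far ends of the left panel, such as Hdc, lie along the diagonal, and a broader cloud of smaller differences runs along the right panel.

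Among the largest rises were transcription factors and peptides of the caudal, tuberal and lateral hypothalamus whose K3 regional differences were also large, while Alox15, described below, was among them without one. Hdc was higher by 5.25 on the log2 scale (SE 0.21, adjusted p = 1.1e-08), Lmx1a by 4.79 (SE 0.23, adjusted p = 5.2e-08) and Foxb1 by 2.17 (SE 0.24, adjusted p = 5.1e-05). Pmch was higher by 5.23 with a wide error (SE 1.07, adjusted p = 0.0029), since control replicate 2 held 140.6 CPM, and without that library the difference was 8.58 (adjusted p = 1.1e-09). Nr5a1 (SF-1), which defines the ventromedial nucleus, was at 0 to 0.11 CPM in control and at 7.74 to 12.8 CPM in the libraries labelled K12. Its log2 difference of 7.74 (SE 0.35) stood beside a K3 regional difference of 7.73. Npvf, the precursor of RFamide-related peptide 3 made in the dorsomedial nucleus, was at 0.39, 0.64, 0, 0 and 0.05 CPM in control and at 37.8, 51.9, 34.2, 33.1 and 31.2 CPM in those labelled K12 (log2 difference 7.32, SE 0.40, adjusted p = 1.4e-07). Hcrt, the orexin precursor, rose from 0.65 to 2.27 CPM to 26.5 to 33.9 CPM (log2 difference 4.49, SE 0.23). For Nr5a1, Npvf and Hcrt the values of the MBH control libraries, 7.12 to 12.9, 19.6 to 39.3 and 30.3 to 41.0 CPM in the same order, overlapped with those of the libraries labelled K12.

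Most of the largest falls were genes of the telencephalon, septum and basal forebrain, and Gnrh1 and Oxt were also among them. Lhx8, a transcription factor of cholinergic neurons, was at 17.7, 4.24, 41.6, 26.9 and 21.8 CPM in control and at 0.10 to 0.55 CPM in the libraries labelled K12 (log2 difference -6.26, SE 0.63). Chat, the enzyme that makes acetylcholine, was at 13.4, 2.17, 55.2, 35.0 and 25.1 CPM in control and at 0.98 to 1.59 CPM in those labelled K12 (log2 difference -4.41, SE 0.67, adjusted p = 0.00043). Lhx8 and Chat varied together over the control libraries, with replicate 2 lowest and replicate 3 highest for both. Lhx6, a factor of GABAergic interneurons, fell by 4.42 on the log2 scale (SE 0.49) and Tbr1, a factor of cortical projection neurons, by 3.98. Gnrh1 was lower by 4.73 on the log2 scale (SE 0.45, adjusted p = 1.3e-05). Oxt, the oxytocin precursor, was at 387, 477, 90.6, 323 and 359 CPM in control and at 4.70, 10.6, 10.7, 51.2 and 25.4 CPM in those labelled K12 (log2 difference -4.03, SE 0.58). Its K3 regional difference was -1.04 (adjusted p = 0.066) and its PND22 difference -1.39, and in the DES libraries, where the regional contrast carries the age profile, the difference was -3.42 (adjusted p = 5.8e-05).

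Most marker lists of brain areas had a median change in the direction of their median K3 regional difference. Calls are read against 16.3% of all genes higher and 13.5% lower. Of 9 mammillary genes tested, 8 rose and 0 fell (median log2 difference 4.79, and the same with the 3 genes that had at most 3 control reads set at their bound). In the histaminergic list 4 of 5 genes rose (median 1.59) and in the ventromedial list 4 of 5 (median 1.73). The lateral hypothalamic list had 4 genes higher and 1 lower of 5 (median 1.84), and 3 of 5 tanycyte genes rose (median 1.41). The arcuate list was divided, with 4 of 8 genes higher and 3 lower (median 0.98). Pomc, the melanocortin precursor, was higher by 3.79 and Agrp, its functional opponent, by 3.76, while Kiss1 and Tac3 were lower. Pomc missed the threshold in one fit over all 7 POA groups at PND90 (adjusted p = 0.103). In the preoptic list 0 of 11 genes rose and 7 fell (median -0.66), and in the list of the paraventricular and supraoptic nuclei 0 of 6 rose and 3 fell (median -1.02). Striatal and septal genes were lower for 6 and higher for 2 of 12 (median -0.51), and thalamic genes lower for 3 of 6 (median -0.82). The suprachiasmatic list had 2 of 5 genes lower, the cortical list 1 of 4 lower, the dorsomedial list 1 of 3 higher and the midbrain dopamine list 2 of 3 higher. The thalamic, cortical and suprachiasmatic medians of -0.82, -1.58 and -0.19 stood beside median K3 regional differences of 0.76, 0.78 and 0.43, of opposite sign. In every other list of this paragraph both medians had the same sign.

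**Figure D5:**
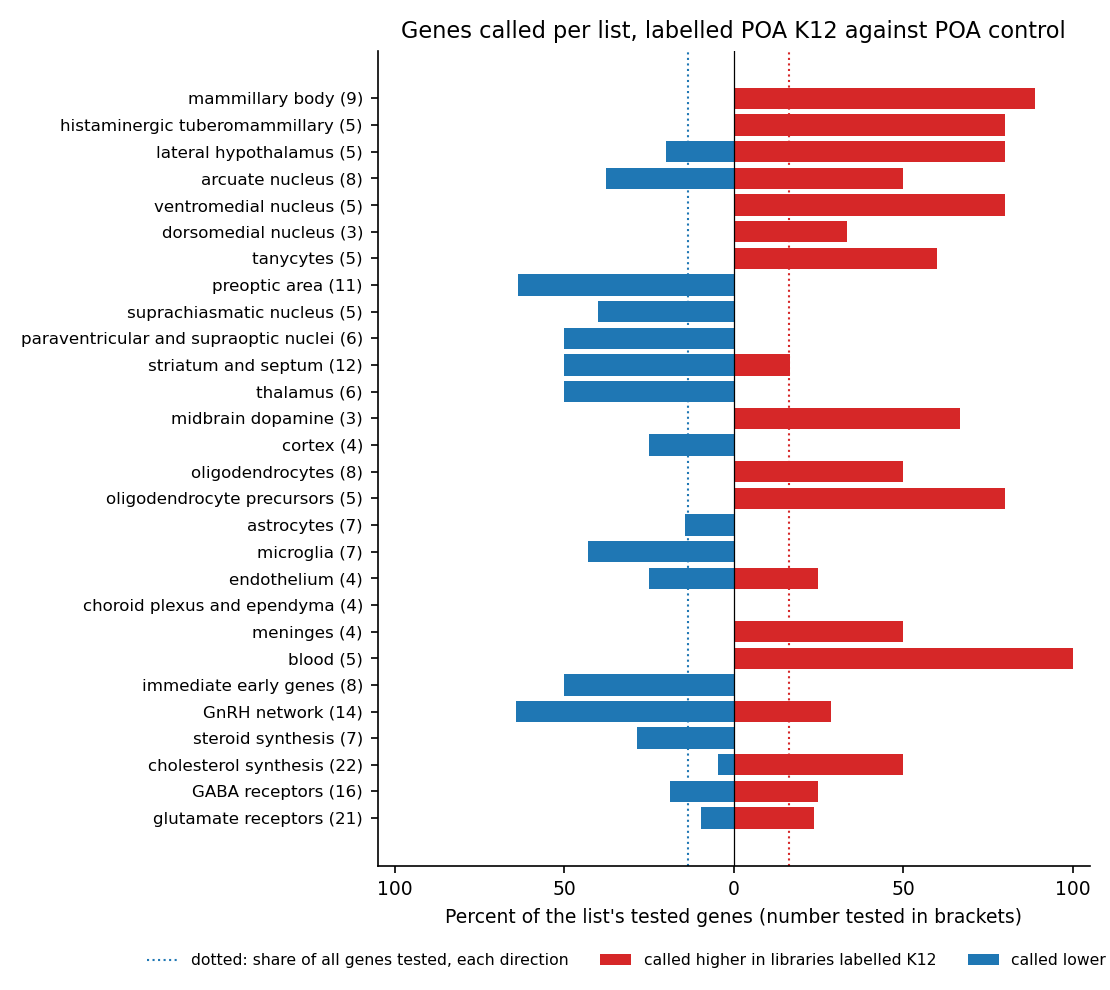
Percent of each marker list's tested genes that were higher (right) or lower (left) in the libraries labelled K12 than in POA control; dotted lines mark the 16.3% and 13.5% of all genes tested. The mammillary, histaminergic and ventromedial lists lie far above the background for higher genes and the preoptic list above it for lower genes.

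Genes of the GnRH network, which controls the ovarian cycle, mostly fell. Of 14 tested, 4 were higher and 9 lower (median log2 difference -0.59), beside 16.3% and 13.5% of all genes. In one fit over all 7 POA groups at PND90, Esr1 (adjusted p = 0.243), Pgr (adjusted p = 0.166), Tac3 (adjusted p = 0.0905) and Kiss1 (adjusted p = 0.161) missed the threshold. Esr1, estrogen receptor alpha, was lower by 0.95 on the log2 scale (SE 0.20, adjusted p = 0.0037) and Pgr, the progesterone receptor, by 0.72 (SE 0.17, adjusted p = 0.0071), with CPM that overlapped between the groups. Tac3, the neurokinin B precursor, was at 24.2 to 49.4 CPM in control and at 15.3 to 17.7 CPM in the libraries labelled K12 (log2 difference -1.15, SE 0.18). Kiss1, the kisspeptin precursor, was at 11.0, 3.60, 1.84, 2.90 and 1.84 CPM in control and at 1.55, 2.45, 1.55, 1.53 and 1.32 CPM in those labelled K12 (log2 difference -1.34, SE 0.46, adjusted p = 0.042). The Kiss1 groups overlapped and control replicate 1 stood above the rest. Without that library the Kiss1 difference was -0.61 (adjusted p = 0.102), with the replicate block -1.06 (adjusted p = 0.0564), and it also missed the threshold without replicate 1, 3, 4 or 5 of those labelled K12 (adjusted p = 0.0791 to 0.0835). Pdyn, the dynorphin precursor, was higher by 1.45 (SE 0.18) beside a K3 regional difference of 1.08. Esr1 had a K3 regional difference of -1.48. Against MBH control, neither Esr1 (0.37 on the log2 scale, adjusted p = 0.39), Kiss1 (0.29, adjusted p = 0.77) nor Tac3 (-0.02, adjusted p = 0.97) passed the test. In that comparison 0 of 14720 genes passed, so this is no trait of these genes.

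A second group of genes went with the PND22 difference and not with the K3 regional difference. Gpr17, a receptor of immature oligodendrocytes, was at 24.2, 29.4, 27.8, 28.0 and 27.3 CPM in control and at 112, 103, 103, 115 and 117 CPM in the libraries labelled K12 (log2 difference 1.99, SE 0.07, adjusted p = 1.5e-09). Its K3 regional difference was -0.12 (adjusted p = 0.50) and its PND22 difference 2.37. Enpp6, of newly formed oligodendrocytes, was higher by 2.03 (SE 0.19). Of the oligodendrocyte precursor list 4 of 5 genes rose (median 1.99) and of the list of mature oligodendrocytes 4 of 8 (median 0.33). In both lists 0 fell, beside 16.3% of all genes higher and 13.5% lower. Alox15, a lipoxygenase, was at 0.77 to 2.17 CPM in control and at 16.6, 32.5, 33.2, 75.9 and 47.9 CPM in those labelled K12 (log2 difference 4.73, SE 0.41). For Alox15 the PND22 difference was 4.76 and the K3 regional difference -0.73. In the DES libraries, where the regional contrast carries the age profile, its regional difference was 4.49 (adjusted p = 5.7e-08). Alox15 is therefore among the 410 genes that follow region by the rule. Mkrn3, an imprinted gene whose product restrains puberty, was higher by 1.34 (SE 0.21) beside a PND22 difference of 1.6. In MBH K12 against MBH control, Gpr17 was lower by 2.34, Alox15 by 5.85 and Mkrn3 by 1.37 on the log2 scale.

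Among genes of other cell types, read against 16.3% of all genes higher and 13.5% lower, all 5 red blood cell genes rose (median 1.98), and their summed level was 151 to 342 CPM in control and 633 to 1519 CPM in the libraries labelled K12. Alas2, of heme synthesis in red cells, was higher by 2.44 beside a PND22 difference of 2.19. Of 4 meningeal genes 2 rose, and their sum ran from 19.2 to 195 CPM in control and from 190 to 468 CPM in those labelled K12, with Col1a1 overlapping between the groups. In the astrocyte list 1 of 7 genes was lower, in the microglial list 3 of 7 were lower, in the endothelial list 1 was higher and 1 lower of 4, and in the list of choroid plexus and ependyma 0 of 4 were called. Immediate early genes, which respond to activity and handling, were lower for 4 of 8 (median -0.93). Of 8 pituitary genes 1 was tested and it was not called. The untested Cga, the subunit shared by the glycoprotein hormones and made in the pars tuberalis and pituitary, was at 3.61, 60.6, 20.3, 60.1 and 0.48 CPM in the libraries labelled K12 and at most 0.16 CPM in control. The summed level of the 8 genes was 4.20 to 34.6 CPM in control and 6.51 to 89.6 CPM in the libraries labelled K12. Some hormones of the list were higher in control. Prl, prolactin, had 546 reads in the control libraries together, most of them in replicate 5 (26.2 CPM), and 0 in those labelled K12, and Gh1, growth hormone, had 95 and 4. The part of blood, meninges and pituitary tissue in the other differences was not tested.

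Cholesterol synthesis, which contains the enzyme that azoles block, had 11 of 22 genes higher and 1 lower (median log2 difference 0.26). Of all genes tested, 16.3% were higher and 13.5% lower. Cyp51, lanosterol demethylase itself, was at 199, 189, 190, 205 and 205 CPM in control and at 250, 251, 248, 254 and 245 CPM in the libraries labelled K12 (log2 difference 0.32, SE 0.05, adjusted p = 0.00048). The groups did not overlap. MBH control held 253 to 330 CPM of Cyp51, which reached above the libraries labelled K12. Srebf2, which encodes the transcription factor that drives the pathway, was the 1 gene lower (log2 difference -0.32, SE 0.05). In the fit over all 7 POA groups at PND90, Cyp51 (adjusted p = 0.374) and Srebf2 (adjusted p = 0.112) missed the threshold. The Cyp51 PND22 difference was 0.24 (adjusted p = 0.14) and its K3 regional difference 0.23 (adjusted p = 0.043). Of 7 genes of steroid synthesis tested, 0 rose and 2 fell (median -0.32), against the same shares of all genes. Cyp19a1, aromatase, which makes estradiol, was lower by 1.94 (SE 0.31) with a K3 regional difference of -2.06, and Tspo, a mitochondrial protein linked to cholesterol import, was lower by 1.08 (SE 0.17) with a PND22 difference of -0.90.

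A set of 10 genes was named because their regional difference in the DES libraries was under 0.25 on the log2 scale, the 5 largest rises and the 5 largest falls among the genes called whose groups did not overlap. Ednra, the endothelin A receptor, was at 7.06, 5.92, 5.81, 3.8 and 4.05 CPM in control and at 13.1, 14.4, 11.4, 12.5 and 11.5 CPM in the libraries labelled K12 (log2 difference 1.22, SE 0.16, adjusted p = 0.00014). Bcl6b, a transcriptional repressor, was higher by 1.27 (SE 0.24), Bcl2l11 (BIM), which promotes apoptosis, by 1.14 (SE 0.17), Ptpn18, a tyrosine phosphatase, by 1.14 (SE 0.16) and Adamts7, a secreted protease, by 1.13 (SE 0.20). Bcl2l11 had a K3 regional difference of 1.03 (adjusted p = 0.0094) and Adamts7 a PND22 difference of 0.45 (adjusted p = 0.0048). Ednra and Bcl6b had neither, with K3 regional differences of 0.06 and 0.14 and PND22 differences of -0.0047 and 0.03. Among the falls, Prkcd, a protein kinase C that is abundant in thalamus, was at 20.2, 18.9, 102, 49.1 and 15.5 CPM in control and at 13.4, 14.0, 11.0, 13.2 and 8.86 CPM in those labelled K12 (log2 difference -1.76, SE 0.46). Control replicates 3 and 4 stood highest there, and without replicate 3 the difference was -1.11 (adjusted p = 0.0094). Nkx6-2, a transcription factor of myelinating cells, was lower by 0.78, Camk2n2, an inhibitor of CaM kinase II, by 0.76, LOC100909856 by 0.73 and Celf4, a neuronal RNA-binding protein, by 0.70. LOC100909856 had a PND22 difference of -0.67 (adjusted p = 3.6e-06) and a DES regional difference of -0.25 (adjusted p = 0.014). The other 4 falls were called on neither the K3 regional nor the PND22 difference. Against the 5 K3 libraries in place of control, Bcl6b, Nkx6-2, Camk2n2 and Celf4 did not pass the test and the Ednra difference was 0.53. In the fit over all 7 POA groups Ednra, Bcl2l11, Nkx6-2, Camk2n2 and Celf4 missed the threshold (adjusted p = 0.0638 to 0.235). Against MBH control at PND90, where 0 of 14720 genes were called, none of the 10 passed it, with adjusted p from 0.16 to 0.94. That is therefore no trait of these 10.

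In the MBH of the same K12 rats the comparison with MBH control called 4537 of 14596 genes (31.1%), 14.6% of all tested higher and 16.5% lower. It shares no library with the POA comparison. The PND22 profile lay at -0.07 to 0.17 in MBH control and at -1.84 to -1.62 in MBH K12. KTZ exposure and age profile therefore cannot be told apart in the MBH comparison either. Across 14479 genes the 2 differences had an r of -0.56, and of 2411 genes called in both, 58 had the same direction. These 2411 were 55.8% of the POA calls and 53.5% of the MBH calls tested in both. The test of whether the K12 minus control difference differed between the 2 tissues, an interaction term over the 4 groups, called 7043 of 15110 genes (46.6%). Gpr17 was higher by 1.99 in the libraries labelled POA K12 and lower by 2.34 in MBH K12, and Ezh2, the methyltransferase of Polycomb repression, was higher by 1.04 and lower by 1.03, each against its own control. For Gpr17 and Ezh2 alike, POA control and MBH K12 lay low and MBH control and the libraries labelled POA K12 lay high.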

How the data were processed

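RNA-seq libraries from the POA and MBH of female rats were used as raw gene counts, deposited by the authors as 1 table of 32883 genes per tissue. Per the labels and the study's methods, polyadenylated RNA was sequenced from stranded TruSeq libraries on a NovaSeq instrument, converted with bcl2fastq 2.20, aligned to Rnor_6.0 with STAR and counted on the Ensembl annotation with featureCounts in the nf-core rnaseq pipeline. The strand setting of the counting is not given in the sources used here, so overlapping and antisense genes may share reads. Groups were taken from the sample labels and each table column was matched to a sample by its name. The labels give each library's rat, and the POA and MBH libraries of the K12 group at PND90 share their rats.

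Each comparison was fitted on its own 2 groups of 5 libraries with edgeR 4.0.16 in R 4.3.3 (limma 3.58.1 loaded): filterByExpr with a minimum count of 10, TMM scaling, the quasi-likelihood test and Benjamini-Hochberg adjustment over all genes tested, called at an adjusted p under 0.05. The interaction was fitted on the POA and MBH control and K12 groups at PND90. Levels are CPM before TMM scaling and profiles use log2 (CPM + 0.5). A floor of 3 counts over a group stands in for groups with at most 3 counts. DESeq2 1.42.0, other scalings, filters and reference groups and leaving out each library were alternatives. The procedure was tested on simulated counts.

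Named genes were the 4 regional transcripts, up to 10 of the largest rises and of the largest falls among calls with a mean log2 CPM of at least 1 that did not overlap between the groups, the 5 largest rises and falls with a regional difference under 0.25, and members of the marker and pathway lists. Which list members to name was decided after their values were seen, and some genes that the rule names are not reported here. Promoters came from RefSeq. The comparison, the lists and the regional transcripts were chosen with earlier results of these data known, and the split by K3 regional and PND22 differences was added after the files were examined. Replicate numbers of POA control and K12 libraries share only a number: deviations of same-numbered libraries from their group means had correlations of -0.165 to 0.036. The rats of POA K12 and MBH K12 are paired by their labels, with correlations of -0.119 to 0.056 between the 2 tissues. P-values cover the spread between these rats, which may share litters.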

Additional observations from a re-analysis of the deposited data

Results flagged for a closer look

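In groups of 5 libraries, 1 value stood far from the other 4 in 8 of 102 groups tested, and chance gives about 1 in 20. Pmch in POA control replicate 2 was at 140.6 CPM beside 1.64 to 3.90 CPM in the others. Foxb1 in the libraries labelled K12 was at 8.52 CPM in replicate 4 beside 13.2 to 14.1 CPM. Zic1, a transcription factor of septum and dorsal forebrain, was at 110.7 CPM in POA control replicate 3 beside 43.1 to 60.6 CPM, in the library that also had the most Lhx8 and Chat. LOC100909856 in the libraries labelled K12 was at 6.78 CPM in replicate 5 beside 4.75 to 5.15 CPM. Kiss1 was at 11.0 CPM in POA control replicate 1 beside 1.84 to 3.60 CPM, and at 2.45 CPM in replicate 2 of the libraries labelled K12 beside 1.31 to 1.55 CPM. Cyp19a1 was at 1.48 CPM in POA control replicate 3 beside 4.45 to 5.66 CPM, and Cbx7 at 89.1 CPM in POA control replicate 4 beside 76.3 to 79.7 CPM.

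The K12 minus control difference differed between the tissues, by the interaction term, for 7043 of 15110 genes (46.6%). The regional transcripts had interactions of 5.86 for Hdc (SE 0.30, adjusted p = 3.75e-12), 4.73 for Pmch (adjusted p = 0.000703), 2.54 for Foxb1 (adjusted p = 4.1e-07) and 4.76 for Lmx1a (adjusted p = 7.48e-10), each as POA minus MBH on the log2 scale. Among the genes with little regional difference, the rises had interactions of 1.93 for Bcl6b, 1.67 for Ednra, 1.52 for Bcl2l11, 1.44 for Ptpn18 and 2.44 for Adamts7. The falls had interactions of -4.28 for Prkcd, -0.91 for Nkx6-2, -0.92 for Camk2n2, -1.13 for LOC100909856 and -0.71 for Celf4. Adjusted p for these 10 ran from 3.59e-07 to 0.00749. The other rises of the caudal, tuberal and lateral hypothalamus had interactions of 8.24 for Nr5a1, 7.4 for Npvf, 6.25 for AABR07019383.1, 3.63 for Fndc3c1, 4.20 for Hcrt, 2.66 for Pomc and 4.56 for Agrp. The falls of forebrain and preoptic genes had -5.81 for Lhx8, -6.96 for Gbx1, -4.81 for Gnrh1, -4.74 for Lhx6, -4.63 for Chat, -5.34 for Oxt, -4.88 for Tbr1, -4.28 for Ngfr and -3.76 for Zic1.

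Alox15 had the largest interaction of the genes listed here, 10.56 (SE 0.60). Genes of myelinating cells had 4.31 for Gpr17 and 3.81 for Enpp6, and blood and meningeal genes 5.08 for Alas2 and 5.59 for Col1a1. Sterol and steroid genes had 0.52 for Cyp51, -0.60 for Srebf2, -1.80 for Cyp19a1 and -1.75 for Tspo. In the GnRH network the values were -1.24 for Esr1, -1.03 for Pgr, -1.53 for Tac3, -2.42 for Kiss1, 1.48 for Pdyn and 2.69 for Mkrn3. Receptor and chromatin genes had -2.26 for Grm3, 1.20 for Grm2, 2.04 for Ezh2, 2.25 for Sirt2, 1.76 for Dnmt3a and -1.45 for Cbx7. Genes were listed here only if their interaction passed an adjusted p of 0.05, so their passing is not a result. Many were also named for their K12 minus control difference in the POA, which is a part of the interaction. In these libraries the interaction cannot be told apart from the region and the age profile of the libraries labelled POA K12. Nor can it be told apart from the PND22 profile of the MBH control libraries labelled PND90, which the MBH K12 libraries lacked.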

How the results depend on the processing

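For the libraries labelled K12 against POA control, edgeR gave 4394 calls with RLE size factors and DESeq2 4839, with 50% and 49.6% of calls higher beside 54.5% as reported. One fit over all 7 POA groups at PND90, among them the divided K6 group, gave 1975, and a minimum of 2-fold left 749. Leaving out 1 library gave 3635 to 4900 calls, and 80.5% to 93.1% of the reported calls remained. For the other comparisons the ranges were 4629 to 5216 against MBH K12, 0 to 95 against MBH control (2 without its replicate 2 and 95 without its replicate 4), 3939 to 4287 in the MBH and 3098 to 5922 for the DES regional contrast, the highest without POA D6 replicate 2. Against MBH control at PND90, DESeq2 gave 86 calls, no filter gave 7 and the PND42 controls as reference gave 1945.

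The 410 genes that follow region became 135 with the PND42 regional contrast (2 against it), 185 with that of K3 (3 against it), 1031 and 97 at minimum regional differences of 0.5 and 2, and 2283 with any called regional difference. With either the K3 regional or the PND22 difference the count was 2696. Leaving out 1 library gave 405 to 446. The age profile from MBH DES libraries, PND90 minus PND42, was higher by 1.75 in the libraries labelled K12 than in POA control. A higher value does not mean older here: POA control averaged 1.74 at PND22, 0.37 at PND42 and -0.33 at PND90. The MBH D3 and D6 libraries labelled PND90, from which it was partly made, had PND22 profiles of 0.07 and -0.01 on average. The difference became -1.42 when the genes came from the POA DES libraries at the same ages. The region profiles over 100 and 50 genes per side differed by 3.37 and 3.84. The causes were not tested.

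With the replicate block the counts were 3674 against POA control, 4748 against MBH K12 (paired by rat), 0 against MBH control, 4413 in the MBH, 3029 for the DES regional contrast and 6496 for the interaction. No library labelled K12 (0 of 5) was best matched by the control of its own number. The block moved no count by over 1.5 times and among the named genes ended the call of Kiss1 alone. Over the named genes, 882 gene and setting pairs kept direction and call, 34 lost the call and none reversed. Depth limits genes under about 1 CPM, where intervals would cover counting error only.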

Other observations

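Receptor genes of GABA and glutamate were called in both directions. Of 16 GABA receptor genes tested, 4 were higher and 3 lower in the libraries labelled K12 than in POA control (median log2 difference -0.06). Of 21 glutamate receptor genes, 5 were higher and 2 lower (median 0.05), read against 16.3% and 13.5% of all genes. Grm3, a presynaptic and glial metabotropic receptor, was at 48.0, 65.1, 85.2, 69.9 and 52.5 CPM in control and at 29.2, 21.6, 25.5, 25.7 and 24.5 CPM in the libraries labelled K12 (log2 difference -1.36, SE 0.14). Grm2, its close relative, was higher by 1.11 (SE 0.18). Grm3 (adjusted p = 0.0518) and Grm2 (adjusted p = 0.0879) missed the threshold in the fit over all 7 POA groups at PND90. The Grm3 PND22 difference was -0.74 and its K3 regional difference -0.13.

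Of 8 chromatin regulators that the study singled out in its MBH libraries, 3 were higher and 2 lower (median 0.15), beside 16.3% and 13.5% of all genes. Sirt2, a deacetylase abundant in myelin, was at 236 to 262 CPM in control and at 480 to 569 CPM in the libraries labelled K12 (log2 difference 1.03, SE 0.06). Dnmt3a, a DNA methyltransferase, was higher by 0.75 and Cbx7, a Polycomb subunit, lower by 0.71. Their PND22 differences were 1.21, 0.87 and -0.87, and their K3 regional differences 0.12, -0.13 and 0.07. The study's lists were not independent of the series: of 6 genes it tied to delayed puberty 3 were higher and 1 lower, and of 62 genes of GnRH control 24 were higher and 16 lower (medians 0.28 and 0.09), against the same shares of all genes.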
